A study of Homo sapiens with 3 samples.

Results

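The 32 genes described here make cholesterol, control its synthesis, move it inside the cell or export it. They were chosen by name and all 32 were found among the 17576 genes of the table; 31 reached the mean of 1 FPKM (fragments mapped to a gene, scaled to its length in kilobases and to the library) that was asked of a gene, and ABCG1 did not. Expression was measured by RNA sequencing in the established cell line LX-2, which derives from human hepatic stellate cells, the main source of scar matrix in the fibrotic liver. One culture received TGF-b1 and 10 μM of DP, the natural small molecule of the study, a second received TGF-b1, a cytokine that drives fibrosis, and the remaining one received the vehicle DMSO. All were taken at 48 h, all are the same cell line, and the growth medium held fetal bovine serum, which carries lipoproteins. Each group was 1 library, so no value has a replicate check, no test was made, and every difference below is between 2 libraries.

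Cells build cholesterol from acetyl-CoA through mevalonate, farnesyl diphosphate, squalene and lanosterol. When the endoplasmic reticulum is short of sterol, SCAP escorts the SREBP transcription factors to the Golgi for cleavage, and the released part switches on nearly the whole set of synthesis enzymes, while sterol and the INSIG proteins hold SCAP back. When sterol is plentiful, oxysterols activate the LXR receptors, which switch on the exporters ABCA1 and ABCG1. In mice, free cholesterol that gathers in stellate cells is known to make them more responsive to TGF-beta.

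The libraries were compared as deposited. Summed FPKM was 429399 in TGF-b1+DP, 546754 in TGF-b1 and 443566 in DMSO. In short genes with little intron the low values were spaced at about 0.0489, 0.0495 and 0.0502 FPKM times kilobases in that order. Each step was fitted to these same values, of which 67.9% to 72.4% lay within 0.2 of a whole step. An even spread would give 40% for a step fixed beforehand and more for a fitted one. If that step is 1 fragment, each library held 19.9 to 20.5 M fragments. Of 12 stellate markers 9 reached 1 FPKM in each library, and DES, LRAT and PDGFRA stayed at or below 0.21 FPKM. The median of the 12 was 8.8, 55.6 and 28.0 FPKM in TGF-b1+DP, TGF-b1 and DMSO. ACTA2, smooth muscle actin, had 6.79, 78.1 and 21.1 FPKM and TAGLN, an actin-binding protein, had 59.8, 220.1 and 53.9 FPKM in that order, so both were highest in TGF-b1, as most enzymes below were, while FN1 and TIMP1 were highest in TGF-b1+DP. No hepatocyte marker of the 5 measured reached 1 FPKM, and the summed macrophage list was 57.6, 26.1 and 54.4 FPKM in TGF-b1+DP, TGF-b1 and DMSO, nearly all of it CD68, a lysosomal protein of many cells. The 4 cholangiocyte markers measured summed to 10.6, 21.3 and 16.1 FPKM, mostly SOX9 and KRT7, and the 5 endothelial ones to at most 2.0 FPKM. The part of these markers in the results below was not tested. In bulk RNA, fewer cells that express a gene and less RNA per cell cannot be told apart.

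Setting TGF-b1+DP against TGF-b1 shows the difference that came with DP under the cytokine. No member was higher and 4 of 31 were lower by at least 1 on the log2(FPKM+1) scale, which is a 2-fold difference, against 6.19% and 4.26% of all 11327 genes kept. The 4 were IDI1, TM7SF2 and MSMO1, which are enzymes, and INSIG1, the sterol-responsive brake on SREBP. The 19 synthesis enzymes lay below 0 in 18 cases, LSS being the exception, with a median difference of -0.58, where all genes kept had a median of 0.00 and 50.2% of them lay below 0. Outside the enzymes NPC1 (0.91), SREBF2 (0.54), NR1H2 (0.44), ABCA1 (0.40) and STARD4 (0.33) had the largest positive differences. None of these 5 reached 1.

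With libraries scaled to the same total FPKM, no member was lower by 1 and 1, NPC1, was higher, against 1.1% and 12.7% of all genes. That scaling put the median of all genes at 0.29, and the member median lay 0.48 below the median of all genes, against 0.52 as deposited. On that scale 16 of 19 enzymes lay below 0, with a median of -0.24. In each library pair that holds TGF-b1 the differences of all genes also ran with transcript length. For TGF-b1+DP against TGF-b1 the 2820 genes with the shortest transcripts had a median of -0.46 and the 2820 with the longest 0.37. Of the members, 9 were among those shortest genes and 2 among those longest. With differences corrected for transcript length and GC content, 17 of 19 enzymes lay below 0 and their median was -0.38.

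**Figure D1:**
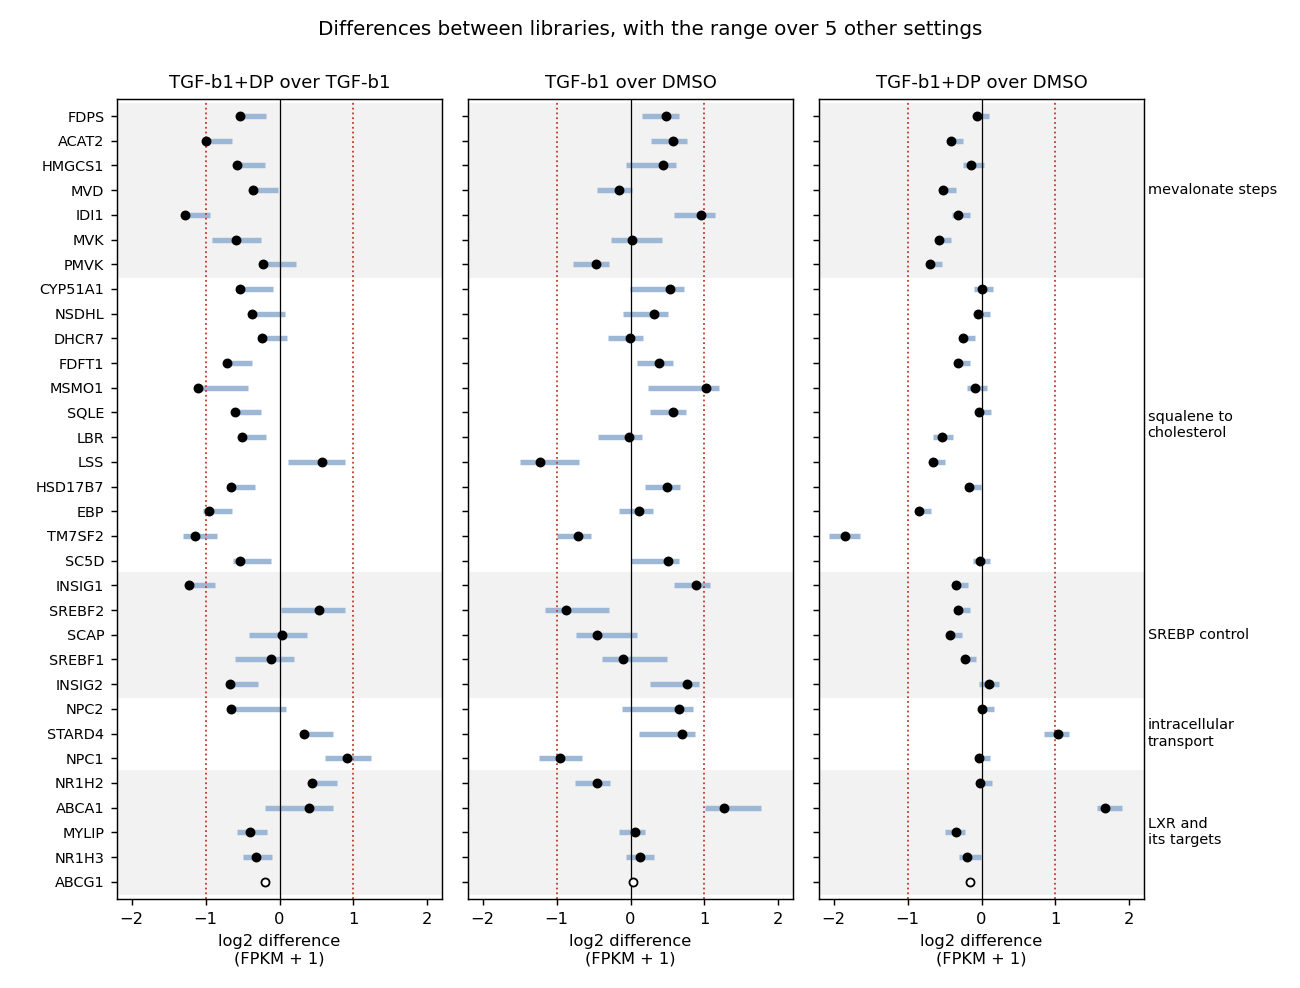
Log2 differences of the 32 genes, with TGF-b1+DP over TGF-b1 on the left, TGF-b1 over DMSO in the middle and TGF-b1+DP over DMSO on the right, on the log2(FPKM+1) scale. Points are values as deposited (open for ABCG1, which did not reach a mean of 1 FPKM), bars run over the 5 other settings that can move a single gene (both scalings, the smaller pseudocount and both corrections), and dotted lines mark -1 and 1; in the first panel 18 of 19 enzymes lie left of 0, and in the last TM7SF2 lies farthest left at -1.85.

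TGF-b1 against DMSO gives the difference that came with the cytokine alone. MSMO1 (1.02) and ABCA1 (1.27) were higher by at least 1 and LSS (-1.22) was lower, so 2 of 31 members were higher and 1 lower, against 2.31% and 6.73% of all genes. Of the enzymes, 13 of 19 lay above 0, with a median of 0.39, where all genes kept had -0.10. IDI1 (0.96) and INSIG1 (0.89) came next to MSMO1 among the positive values. NPC1 (-0.95) and SREBF2 (-0.87) lay nearest to LSS at the other end. The enzyme median was 0.09 with the same total FPKM, 0.57 under median-of-ratios scaling, 0.17 with the length and GC correction and -0.01 when abundance was corrected for too, so its direction depended on the last of these.

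Set against DMSO, the TGF-b1+DP library had 2 members higher by at least 1, ABCA1 (1.67) and STARD4 (1.03), and 1 lower, TM7SF2 (-1.85). The shares of all genes were 2.45% and 2.88%. The enzymes had a median of -0.32, with 18 of 19 below 0, and all genes kept had -0.10, with 62.8% below 0. Under median-of-ratios scaling 12 of 19 enzymes lay below 0, with a median of -0.16. All 3 comparisons draw on the same 3 libraries, so they are not independent of each other.

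**Figure D2:**
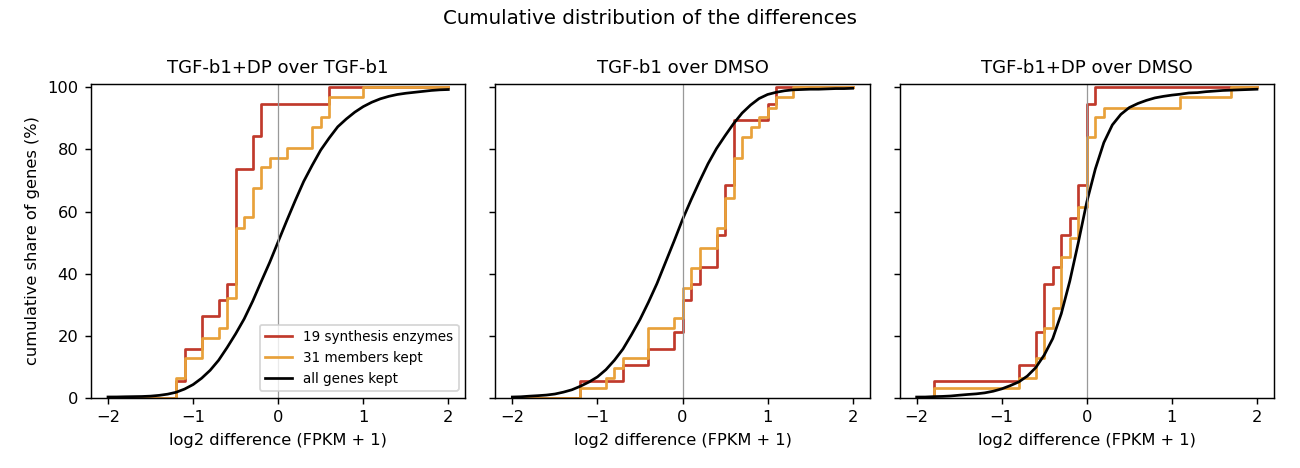
Cumulative share of genes (%) at or below each log2 difference, in steps of 0.1, for the 19 synthesis enzymes, the 31 members kept and all 11327 genes kept. In the first panel the enzyme curve lies left of all genes from -1.2 upwards (median -0.58 against 0.00). No enzyme lies at or below -1.3 there, against 1.17% of all genes. In the middle panel the enzyme curve lies right of all genes over most of the range (0.39 against -0.10).

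The levels themselves show how the enzymes were ordered. FDPS, which makes farnesyl diphosphate, was the most abundant member at a mean of 235 FPKM, above 97.3% of the genes kept. ACAT2 (192 FPKM), CYP51A1 (121), NSDHL (119) and DHCR7 (115) followed. SC5D (4.52 FPKM) and TM7SF2 (10.2) were the least abundant enzymes. The 19 enzymes summed to 1062 FPKM in TGF-b1+DP, 1650.2 in TGF-b1 and 1251 in DMSO. As a share of each library's total FPKM this was 0.247%, 0.302% and 0.282% in the same order.

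**Figure D3:**
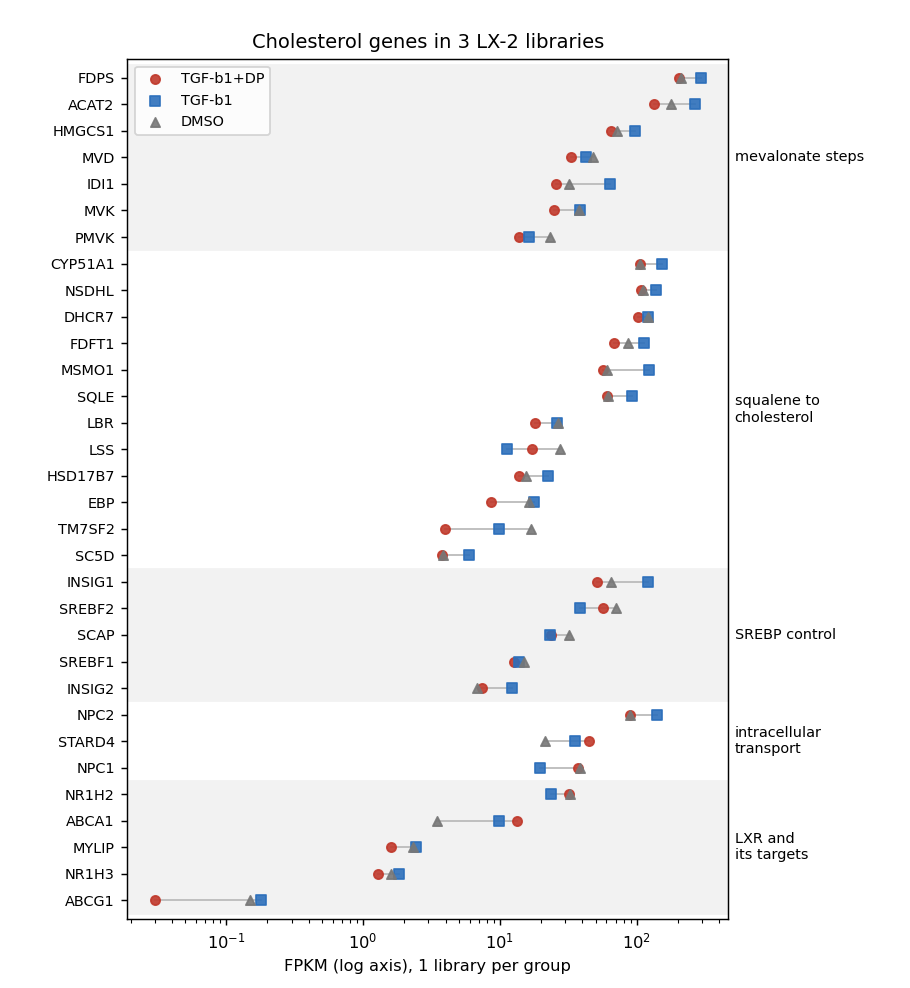
FPKM of the 32 genes on a log axis, by role and by mean level, in the TGF-b1+DP (circles), TGF-b1 (squares) and DMSO (triangles) libraries, with 1 library per group. The TGF-b1 square is rightmost in most enzyme rows, while for LSS, SREBF2, SCAP, NPC1 and NR1H2 it is leftmost.

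The mevalonate steps turn acetyl-CoA into farnesyl diphosphate, and all 7 genes lay below 0 for TGF-b1+DP against TGF-b1, from -0.23 (PMVK) to -1.28 (IDI1). IDI1 (gene ID 3422, chromosome 10, 1039152 to 1049170, GRCh38) encodes the isomerase that makes the activated prenyl unit, and it had 25.6 FPKM in TGF-b1+DP, 63.7 in TGF-b1 and 32.2 in DMSO. Its TGF-b1 value stood well above the other two. The difference to TGF-b1 was -1.28 with DP, or -0.94 with the same total FPKM and -0.99 with length, GC content and abundance corrected for, both short of 1.

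ACAT2, the cytosolic thiolase at the entry of the pathway, had 134 FPKM in TGF-b1+DP, 266 in TGF-b1 and 178 in DMSO (-0.99 for TGF-b1+DP against TGF-b1). Its exons overlap those of SOD2 and TCP1 on the opposite strand, so without a stated strand setting its reads cannot be told apart from theirs. HMGCS1, which makes HMG-CoA, had 64.9 FPKM in TGF-b1+DP, 97.2 in TGF-b1 and 71.4 in DMSO (-0.58). FDPS had 202 FPKM in TGF-b1+DP, 293 in TGF-b1 and 210.3 in DMSO (-0.54). In these genes the TGF-b1 library was highest and the other libraries lay close together, with ACAT2 the widest apart.

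Among the middle enzymes of the mevalonate steps, PMVK and MVD had another order, while MVK was nearly level in TGF-b1 and DMSO. MVK, the mevalonate kinase, had 25.0 FPKM in TGF-b1+DP, 38.2 in TGF-b1 and 37.6 in DMSO, and it overlaps MMAB on the opposite strand. PMVK, the kinase after it, had 13.8 FPKM in TGF-b1+DP, 16.4 in TGF-b1 and 23.0 in DMSO. MVD, the decarboxylase, had 33.1 FPKM in TGF-b1+DP, 42.7 in TGF-b1 and 47.8 in DMSO. All 3 were lowest in TGF-b1+DP, and in PMVK and MVD the DMSO library was highest. None was called in any comparison (-0.57, -0.70 and -0.52 for TGF-b1+DP against DMSO in the order given).

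From squalene to cholesterol, 11 of 12 genes lay below 0 for TGF-b1+DP against TGF-b1. FDFT1, squalene synthase, had 68.3 FPKM in TGF-b1+DP, 113 in TGF-b1 and 85.7 in DMSO (-0.71). SQLE, squalene epoxidase, a rate-controlling step, had 60.7 FPKM in TGF-b1+DP, 92.4 in TGF-b1 and 62.0 in DMSO (-0.60). In SQLE the TGF-b1+DP and DMSO values nearly coincided (-0.03 between them).

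LSS (gene ID 4047, chromosome 21, 46188141 to 46228824), which folds squalene epoxide into lanosterol, was the only enzyme higher in TGF-b1+DP than in TGF-b1. It had 17.1 FPKM in TGF-b1+DP, 11.2 in TGF-b1 and 27.5 in DMSO, so the TGF-b1 library was the lowest. Its difference was 0.57 for TGF-b1+DP against TGF-b1. For TGF-b1 against DMSO it was -1.22. With the length and GC correction they were 0.14 and -0.70. Its longest transcript, at 4936 bases, was the longest of the 19 enzymes. AP001468.1, an annotated gene not listed by that name in the table, overlaps LSS on the opposite strand. Such overlaps were not particular to LSS. Exons of IDI1, FDPS and HMGCS1 also overlap unmeasured genes on the opposite strand, and those of CYP51A1 overlap one over 2844 bases on the same strand.

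CYP51A1, lanosterol demethylase, had 105.1 FPKM in TGF-b1+DP, 153 in TGF-b1 and 104.9 in DMSO (-0.53 for TGF-b1+DP against TGF-b1). The next reduction can be done by TM7SF2 or by LBR, which is also the lamin B receptor of the inner nuclear membrane. TM7SF2 (gene ID 7108, chromosome 11, 65111845 to 65116384) had 3.94 FPKM in TGF-b1+DP, 9.91 in TGF-b1 and 16.9 in DMSO. It was the only member called lower in 2 comparisons, at -1.14 in TGF-b1+DP against TGF-b1 and -1.85 against DMSO, and the value against DMSO stayed past 1 in all 5 other settings that can move a single gene (-2.07 to -1.64). Between TGF-b1 and DMSO it was at -0.71. LBR had 18.0 FPKM in TGF-b1+DP, 26.1 in TGF-b1 and 26.5 in DMSO (-0.51 and, for TGF-b1 against DMSO, -0.02).

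Removal of the methyl groups next to the sterol hydroxyl takes MSMO1, NSDHL and HSD17B7. MSMO1 (gene ID 6307, chromosome 4, 165327623 to 165343160) had 56.6 FPKM in TGF-b1+DP, 123 in TGF-b1 and 60.2 in DMSO. Its TGF-b1 value was the one apart. Its difference was -1.11 for TGF-b1+DP over TGF-b1 and 1.02 for TGF-b1 over DMSO, or -0.65 and 0.46 with the length and GC correction, both within 1. NSDHL had 107 FPKM in TGF-b1+DP, 139 in TGF-b1 and 111 in DMSO. HSD17B7 had 13.8 FPKM in TGF-b1+DP, 22.3 in TGF-b1 and 15.6 in DMSO. Both followed the order of MSMO1 at smaller differences (-0.37 and -0.66 for TGF-b1+DP over TGF-b1).

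The last steps are the isomerase EBP, the desaturase SC5D and the reductase DHCR7. EBP had 8.66 FPKM in TGF-b1+DP, 17.8 in TGF-b1 and 16.3 in DMSO, so the library with DP was the low one (-0.96 against TGF-b1 and -0.84 against DMSO). SC5D had 3.79 FPKM in TGF-b1+DP, 5.90 in TGF-b1 and 3.86 in DMSO (-0.53 against TGF-b1). DHCR7 differed least of the 12 in this comparison, with 102 FPKM in TGF-b1+DP, 120.5 in TGF-b1 and 121.3 in DMSO (-0.24 against TGF-b1). EBP lay just short of the threshold against TGF-b1, and at a pseudocount of 0.1 FPKM it passed it (-1.03).

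The SREBP control genes did not share an order. INSIG1 (gene ID 3638, chromosome 7, 155297776 to 155310235), which is both a target and an inhibitor of SREBP, had 51.4 FPKM in TGF-b1+DP, 121 in TGF-b1 and 65.2 in DMSO (-1.23 for TGF-b1+DP against TGF-b1). INSIG2, its paralogue, had 7.36 FPKM in TGF-b1+DP, 12.3 in TGF-b1 and 6.80 in DMSO (-0.67). In both the TGF-b1 library was highest. INSIG1 was at -0.88 with the same total FPKM and -0.96 with length, GC content and abundance corrected for, short of 1 in each.

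SREBF2, which encodes the SREBP that mainly drives cholesterol synthesis, had 56.4 FPKM in TGF-b1+DP, 38.4 in TGF-b1 and 70.8 in DMSO. It was therefore lowest in the library where most of the enzymes were highest. Its differences were 0.54 for TGF-b1+DP over TGF-b1 and -0.87 for TGF-b1 over DMSO, or 0.04 and -0.29 with the length and GC correction. SREBF1, whose product favours fatty acid genes, had 12.6 FPKM in TGF-b1+DP, 13.9 in TGF-b1 and 14.9 in DMSO, and its exons overlap RAI1. SCAP, the escort, had 23.6 FPKM in TGF-b1+DP, 23.1 in TGF-b1 and 31.96 in DMSO. Neither was called in any comparison.

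Among the transport genes, NPC1 and NPC2, which together pass cholesterol out of lysosomes, went opposite ways. NPC1 had 37.4 FPKM in TGF-b1+DP, 19.5 in TGF-b1 and 38.6 in DMSO (0.91 for TGF-b1+DP against TGF-b1). NPC2 had 88.8 FPKM in TGF-b1+DP, 141 in TGF-b1 and 88.5 in DMSO (-0.66). Both had nearly the same level in TGF-b1+DP and DMSO (-0.04 and 0.01). NPC1 has a longest transcript of 5157 bases and NPC2 of 1436, and with both length and GC corrected for the differences were 0.62 and -0.10. Exons of NPC1 overlap RMC1 and those of NPC2 overlap ISCA2, both on the opposite strand.

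STARD4 (gene ID 134429, chromosome 5, 111496033 to 111512590), a carrier that moves sterol between membranes through the cytosol, had 44.7 FPKM in TGF-b1+DP, 35.4 in TGF-b1 and 21.5 in DMSO. The TGF-b1+DP library was highest and DMSO lowest. The difference between them was 1.03, or 0.87 with the length and GC correction.

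Of the export genes, ABCA1 (gene ID 19, chromosome 9, 104781002 to 104928237), which loads cholesterol onto lipid-poor apolipoproteins, showed the largest positive values of all members. It had 13.2 FPKM in TGF-b1+DP, 9.78 in TGF-b1 and 3.46 in DMSO. Both TGF-b1 libraries thus lay above DMSO, at 1.67 for TGF-b1+DP and 1.27 for TGF-b1, and both differences reached 1 in the same 5 settings (1.57 to 1.90 and 1.01 to 1.76). Between the cultures with and without DP ABCA1 was at 0.40, or -0.18 with the length and GC correction, so that direction was not fixed.

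The other LXR genes were low or close together. ABCG1, which exports cholesterol to mature lipoproteins, had 0.03 FPKM in TGF-b1+DP, 0.18 in TGF-b1 and 0.15 in DMSO. If the step above is 1 fragment this is about 2.1, 12.6 and 10.4 fragments over a transcript of 3475 bases, and no fold was taken. MYLIP, a ubiquitin ligase that degrades lipoprotein receptors, had 1.61 FPKM in TGF-b1+DP, 2.45 in TGF-b1 and 2.30 in DMSO. The LXR receptor NR1H3 had 1.28 FPKM in TGF-b1+DP, 1.84 in TGF-b1 and 1.60 in DMSO, and it overlaps ACP2. NR1H2, the widely expressed LXR, was far more abundant, with 32.1 FPKM in TGF-b1+DP, 23.4 in TGF-b1 and 32.5 in DMSO. ABCA1 was thus the one LXR target here with a called difference.

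The order of the 3 libraries summarises these values. The TGF-b1 library was highest for 18 of 31 members and 13 of 19 enzymes, against 35.8% of all genes kept. TGF-b1+DP was lowest for 21 of 31 members and 17 of 19 enzymes, against 36.9% of all genes. ABCA1 and STARD4, 2 of 31, were highest in TGF-b1+DP, against 23.7% of all genes, and under either rescaling NPC1 and NR1H2 joined them. The TGF-b1 library was lowest for 5 of 31 members, against 42.8%. With the same total FPKM the TGF-b1 library was highest for 11 enzymes, against 19.6% of all genes, and TGF-b1+DP was lowest for 13, against 22.4%. Under median-of-ratios scaling the enzyme counts were 16, against 42.3%, and 11, against 28.1%.

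Other genes of the pathway were taken from 3 companion lists. In the isoprenoid branch, which uses farnesyl diphosphate for prenyl groups, dolichol and coenzyme Q, 1 of 12 genes was higher and none lower for TGF-b1+DP against TGF-b1, with a median of -0.19, against 6.19% and 4.26% of all genes. That gene was FNTB, a farnesyltransferase subunit, with 3.18 FPKM in TGF-b1+DP, 0.24 in TGF-b1 and 3.32 in DMSO, and it shares reads with another measured gene. COQ2 was at the other end (-0.94). For TGF-b1 against DMSO 1 of 12 genes was lower, again FNTB (-1.8), against 6.73% of all genes.

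Of 11 genes for SREBP processing and sterol-regulated degradation none was called for TGF-b1+DP against TGF-b1 (median 0.13). Of all genes, 6.19% were higher and 4.26% lower there. For TGF-b1 against DMSO 1 of the 11 was lower, against 6.73% of all genes. It was USP20, a deubiquitinase, with 2.28 FPKM in TGF-b1 and 7.06 in DMSO (-1.30, or -0.79 corrected for length and GC content). Of 20 genes kept for sterol esters, receptors and carriers, none was called for TGF-b1+DP against TGF-b1, against 6.19% and 4.26% of all genes. The median of these 20 was 0.35, from TMEM97 and OSBPL1A (both -0.82) to LRP1 (0.99). For TGF-b1 against DMSO 3 of 20 were lower in this list, against 6.73% of all genes. SOAT1, which esterifies cholesterol, had 9.49 FPKM in TGF-b1 and 20.9 in DMSO (-1.06, or -1.02 corrected). LRP1, an endocytic receptor, was at -1.03 (0.21 corrected) and OSBPL5, a lipid transfer protein, at -1.14 (-0.64 corrected), so the value of LRP1 changed sign with the correction. For TGF-b1+DP against DMSO no gene of the 3 lists was called, where 2.45% of all genes were higher and 2.88% lower.

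Promoter sequence is shown for the 4 members called lower in TGF-b1+DP than in TGF-b1, and for SREBF2, the only member with a match to the sterol regulatory element as spelled here. RefSeq windows (GRCh38.p14, 250 bases before to 50 after the gene start) were held for 28 of 32 members, 38 windows in all. The 200 bases before the RefSeq gene start are printed 5′ to 3′ on the strand of the gene. For IDI1 the second of 3 windows was taken because it holds the most NF-Y boxes. The gene positions given for members came from GENCODE, which places the starts of these genes further upstream. By the GENCODE positions the IDI1 stretch lies wholly inside the gene, and the other stretches run past the gene start at their 3′ ends. Capitals mark the NF-Y box CCAAT, read as ATTGG when it lies on the other strand, and in SREBF2 also the sterol regulatory element TCACNCCAC.

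IDI1, chr10:1048887-1049086, minus strand: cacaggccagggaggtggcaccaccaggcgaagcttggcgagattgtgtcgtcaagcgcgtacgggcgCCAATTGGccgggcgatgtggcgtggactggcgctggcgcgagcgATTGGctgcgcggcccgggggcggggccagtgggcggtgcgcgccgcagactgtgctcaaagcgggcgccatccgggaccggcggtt

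INSIG1, chr7:155297678-155297877, plus strand: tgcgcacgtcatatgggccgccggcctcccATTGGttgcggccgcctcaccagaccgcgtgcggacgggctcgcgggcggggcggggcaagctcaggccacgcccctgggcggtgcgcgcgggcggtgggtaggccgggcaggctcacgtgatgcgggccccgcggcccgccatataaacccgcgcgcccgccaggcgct

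MSMO1, chr4:165327469-165327668, plus strand: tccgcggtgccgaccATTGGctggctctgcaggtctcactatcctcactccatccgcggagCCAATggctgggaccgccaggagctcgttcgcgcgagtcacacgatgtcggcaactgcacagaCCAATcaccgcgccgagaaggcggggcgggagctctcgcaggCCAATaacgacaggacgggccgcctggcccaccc

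TM7SF2, chr11:65111672-65111871, plus strand: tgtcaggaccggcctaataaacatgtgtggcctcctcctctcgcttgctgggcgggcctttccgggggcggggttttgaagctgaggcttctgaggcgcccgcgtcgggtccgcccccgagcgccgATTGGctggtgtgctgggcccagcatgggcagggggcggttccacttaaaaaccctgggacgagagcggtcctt

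SREBF2, chr22:41832905-41833104, plus strand: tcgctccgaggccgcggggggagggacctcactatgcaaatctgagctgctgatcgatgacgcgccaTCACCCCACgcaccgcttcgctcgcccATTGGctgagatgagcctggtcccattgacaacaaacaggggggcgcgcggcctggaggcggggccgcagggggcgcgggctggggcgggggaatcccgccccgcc

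In these stretches MSMO1 had 4 NF-Y boxes, IDI1 had 3, with a pair that overlaps on opposite strands, and INSIG1, TM7SF2 and SREBF2 had 1 each. The other windows of IDI1 held 0 and 2 NF-Y boxes. Searched on both strands, CCAAT was in the windows of 19 of 28 members (67.9%) and 13 of 16 enzymes, against 39.7% of 27305 genes with a window and 43.8% of the 9401 of them that were kept here. The Sp1 box GGGCGG was in 26 of 28 (92.9%), against 48.3% and 79.1%. TCACNCCAC was in 1 of 28, against 1.39% and 1.49%, and in none of the 16 enzymes. Both NF-Y and Sp1 are known partners of SREBP at its target promoters. A match is a run of letters and says nothing of binding. With 1 spelling searched in a short window, the lack of a match does not show that a promoter lacks a sterol element.

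**Figure D4:**
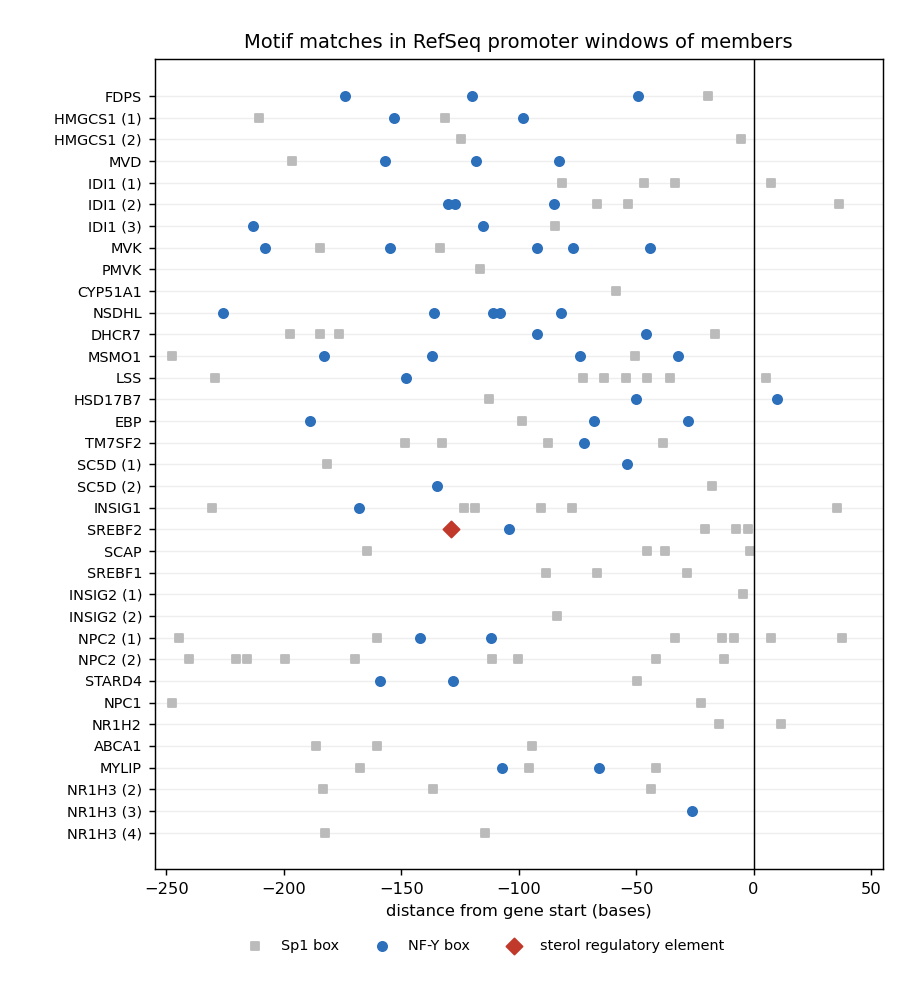
Positions of the sterol regulatory element (diamond), NF-Y box (circles) and Sp1 box (squares) in the RefSeq windows of members with a match. Distance is in bases from the RefSeq gene start at 0, with window numbers where a gene has several. The NF-Y boxes lie upstream of the start except 1 in HSD17B7, and SREBF2 has the one diamond.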

How the data were processed

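RNA from 3 LX-2 libraries, 1 per treatment, was analysed from the authors' deposited table of FPKM values, with 2 decimals and 1 column per library. Per the submitters' processing notes the reads were handled on GRCh38.p13 with tools that included Cufflinks, Cuffdiff, Bowtie and BWA. Their versions, the strand setting and any filter were not given in the sources used here. Because FPKM is scaled within a library, a change in a few abundant transcripts moves all others.

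Of 17596 lines, 20 held annotation text and no gene and were left out. The 11327 of 17576 genes that averaged 1 FPKM or more were kept. A difference is log2((FPKM+1)/(FPKM+1)), which understates the change of low genes, and a gene was called at an absolute difference of 1 or more. With 1 library per group no p-value was computed. The 32 genes, their roles, 3 companion lists and the motifs were chosen with earlier results of these data known. Every member was to be described, and from the companion lists the genes past 1 in any comparison, or otherwise the highest and lowest.

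Transcript length, GC content and gene positions came from GENCODE 29, matched by Entrez identifier for 98.6% of genes. The correction for length and GC content took out a quadratic surface fitted over all genes kept and left their median in place. The calls and the correction were tested on simulated data, and the outcome is not given here. A member was taken to share reads where 100 bp or more of its exons overlapped a measured gene in either orientation, or where 200 bases or more aligned to such a gene's transcript with an identity of 97% or higher. The 8 other settings are given at the end. Python 3.11.15, numpy 2.4.6, pandas 2.3.3, matplotlib 3.10.9, bedtools 2.31.1 and minimap2 2.31 were used.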

Additional observations from a re-analysis of the deposited data

How the results depend on the processing

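No paired analysis was possible because each group was 1 library, and no library could be left out. Values are given for the 31 members kept. For TGF-b1+DP against TGF-b1, the same total FPKM gave 1 member higher, 0 lower and a median of -0.19, against 0, 4 and -0.53 as deposited, while 12.7% of all genes were higher and 1.1% lower. The median was -0.33 after correction for length and GC content and -0.33 with abundance corrected for too, and with abundance 1 member was lower, against 2.3% of all genes. For TGF-b1 against DMSO, the same total FPKM gave 1 higher, 3 lower and a median of 0.02, against 2, 1 and 0.32 as deposited, while 0.918% of all genes were higher and 13.8% lower. Median-of-ratios scaling gave 4 higher, against 5.16% of all genes, and a median of 0.51. Correction for length and GC content gave 1 higher, 0 lower and 0.17, against 1.66% and 2.51% of all genes, and with abundance 1, 0 and 0.06, against 1.47% and 2.33%. For TGF-b1+DP against DMSO, the median was -0.09 under median-of-ratios scaling, against -0.22, and both corrections left 1 member higher, against 2.41% and 2.42% of all genes. The cause of these shifts was not tested. The other settings (a pseudocount of 0.1, no filter, a mean of at least 5 FPKM, and leaving out the 6 members that share reads with a measured gene) moved the counts by no more than 1.5 times and the medians by no more than 0.1. No member changed sign in a comparison in which it was called as deposited. Where they were not called, several members, enzymes among them, changed sign in some setting, and only examples are given. For TGF-b1+DP against TGF-b1, ABCA1 went to -0.18 and -0.19 with the corrections, against 0.40. PMVK went to 0.1 with the same total FPKM, against -0.23. NPC2 went to 0.09 with length, GC content and abundance corrected for, against -0.66. The same correction took HMGCS1 to -0.06, against 0.44, for TGF-b1 against DMSO. MSMO1 went to 0.07 under median-of-ratios scaling, against -0.09, for TGF-b1+DP against DMSO. FPKM keeps no counts, so no interval could be given.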
